A study of Mus musculus with 9 samples.

Results

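The genes described here are 33 mouse genes of microglia and of the complement system, chosen by name from the 22173 genes in the deposited hippocampal expression table, and all 33 had values. Microglia are the resident macrophages of the brain. They depend on signalling through the receptor of colony-stimulating factor 1, sense ATP and chemokines through surface receptors, and clear debris and synapses. Complement is a cascade of secreted proteins that tag targets for clearance: its classical branch begins with C1q, which in the brain is made largely by microglia, and passes through C4 to C3. In the developing visual system of the mouse, C1q and C3 mark synapses that microglia then engulf.

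Hippocampal tissue of female C57BL/6 mice was sequenced in 9 libraries, 3 per group. Middle-aged mice (10 months) received quercetin, a plant flavonol, for 24 days according to the labels, and the methods of the study give injection into the tail vein every other day. The paper gives a longer course for its behaviour experiment, and the labels are followed here. Middle-aged controls (10 months) and young controls (8 weeks) received PBS with 10% DMSO, the solvent that the methods also give for quercetin. The groups shared strain, tissue and solvent. Whether each library came from a single animal is not stated, and p-values therefore cover only the spread between libraries. Levels are FPKM, fragments scaled to transcript length and to the mapped total of the library, as the authors deposited them, and the number of reads behind a value is unknown. Differences are log2 fold changes of FPKM + 1, a scale that understates the change of low genes. They were tested with limma over 13062 genes that reached 1 FPKM in at least 3 libraries, and a gene was called at a Benjamini-Hochberg adjusted p under 0.05. Of the 33 genes, 31 were tested, and C3 and Mrc1 did not reach the minimum.

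Defining microglial transcripts were present in every library, with 7.24 to 10.35 FPKM of Tmem119 and 10.52 to 13.82 FPKM of P2ry12. Border macrophage and blood myeloid markers were low. Their 12 genes summed to 6.05 to 9.14 FPKM in middle-aged quercetin, 5.65 to 10.95 FPKM in middle-aged control and 5.61 to 8.13 FPKM in young control libraries, mostly Lyz2, and no gene of that list was at 0 in every library. Of the other tissues, choroid plexus markers (10 genes) summed to 2841.76 FPKM in young control 3 and 1129.56 FPKM in middle-aged quercetin 2, against 51.7 to 88.7 FPKM in the other libraries. Because these 2 libraries stood apart in these markers, counts are also given without them. Meningeal fibroblast markers (8 genes) varied within every group. They summed to 236 to 491 FPKM in quercetin, 226 to 784 FPKM in middle-aged control and 374 to 733 FPKM in young control libraries. Their highest sum and that of the border macrophage and blood myeloid markers both fell in middle-aged control 2. Red blood cell markers (5 genes) summed to 22.6 to 87.6 FPKM in quercetin, 79.3 to 108 FPKM in middle-aged control and 14.4 to 108 FPKM in young control libraries.

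As a group, the 33 genes were lowest in the young hippocampus. The mean of log2(FPKM + 1) over the 33 genes was 2.86, 2.92 and 3.01 in the middle-aged quercetin libraries, 2.84, 2.95 and 2.98 in the middle-aged controls and 2.74, 2.80 and 2.72 in the young controls. All 6 middle-aged libraries lay above all 3 young ones, while the middle-aged groups overlapped. Group means were 2.93 ± 0.0770, 2.92 ± 0.0716 and 2.75 ± 0.0457 in the same order (SD, n = 3 each), so the age difference was 0.170 and the quercetin difference 0.00783, the second less than the SD of either group. No p is given for this mean, since the genes were listed with earlier results of these data known. In bulk tissue, fewer microglia and less RNA per microglial cell cannot be told apart.

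**Figure D1:**
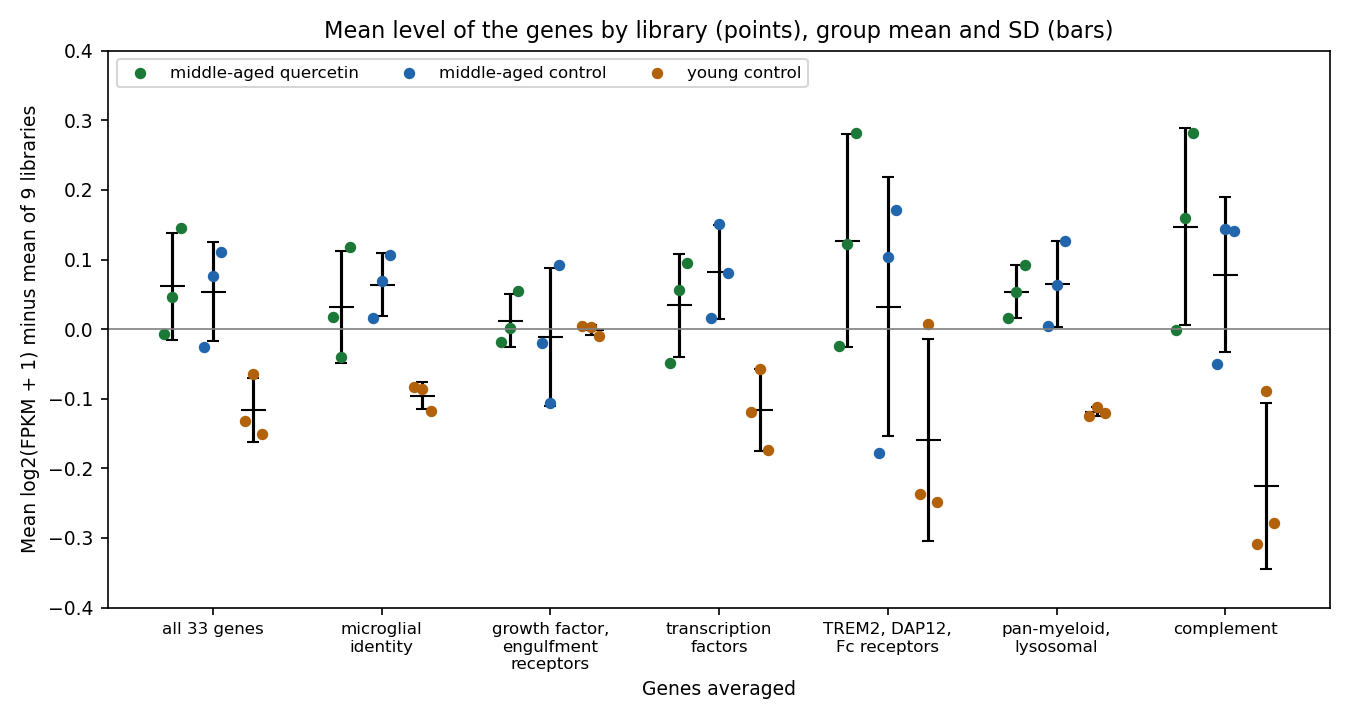
Mean log2(FPKM + 1) of all 33 genes and of 6 groups by role, each shown as its difference from the mean of the 9 libraries (vertical axis, log2 units). Points are libraries and bars are the group mean and SD (n = 3). All 6 middle-aged libraries sit above the 3 young ones for the 33 genes, for the identity genes and for the complement genes, and for the growth factor and engulfment receptors the groups overlap.

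The young mean was the lowest of the 3 group means for 30 of the 33 genes (90.9%), a position it held for 31.5% of all tested genes. A young library was the lowest of the 9 for 26 of the 33 genes, against 29.3% of tested genes. Young control 1 was lowest for 12 genes, young control 3 for 10 and young control 2 for 4. The highest value was spread unevenly within the middle-aged groups. It fell in middle-aged quercetin 3 for 14 genes and in middle-aged control 3 for 10, against 11.8% and 8.21% of tested genes. In FPKM, the 33 genes summed to 292, 296 and 335 in middle-aged quercetin, 282, 307 and 325 in middle-aged control and 258, 278 and 260 in young control libraries. Some astrocyte markers were also lowest in young mice, and the 8 genes of that list summed to 732 to 757 FPKM in quercetin, 740 to 748 FPKM in middle-aged control and 659 to 709 FPKM in young control libraries. Of these 8 genes, 4 had an unadjusted p under 0.05 and a higher level in middle-aged than in young controls (Gfap, S100b, Sox9 and Aqp4), and none was called. Of all tested genes 5.59% were higher at that p. The list was not uniform: 5 of 8 had an age fold change above 0, against 47.9% of all tested genes, and Aldh1l1, Gja1 and Slc1a3 had -0.07, -0.01 and -0.01. The part of astrocytes in the result was not tested.

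**Figure D2:**
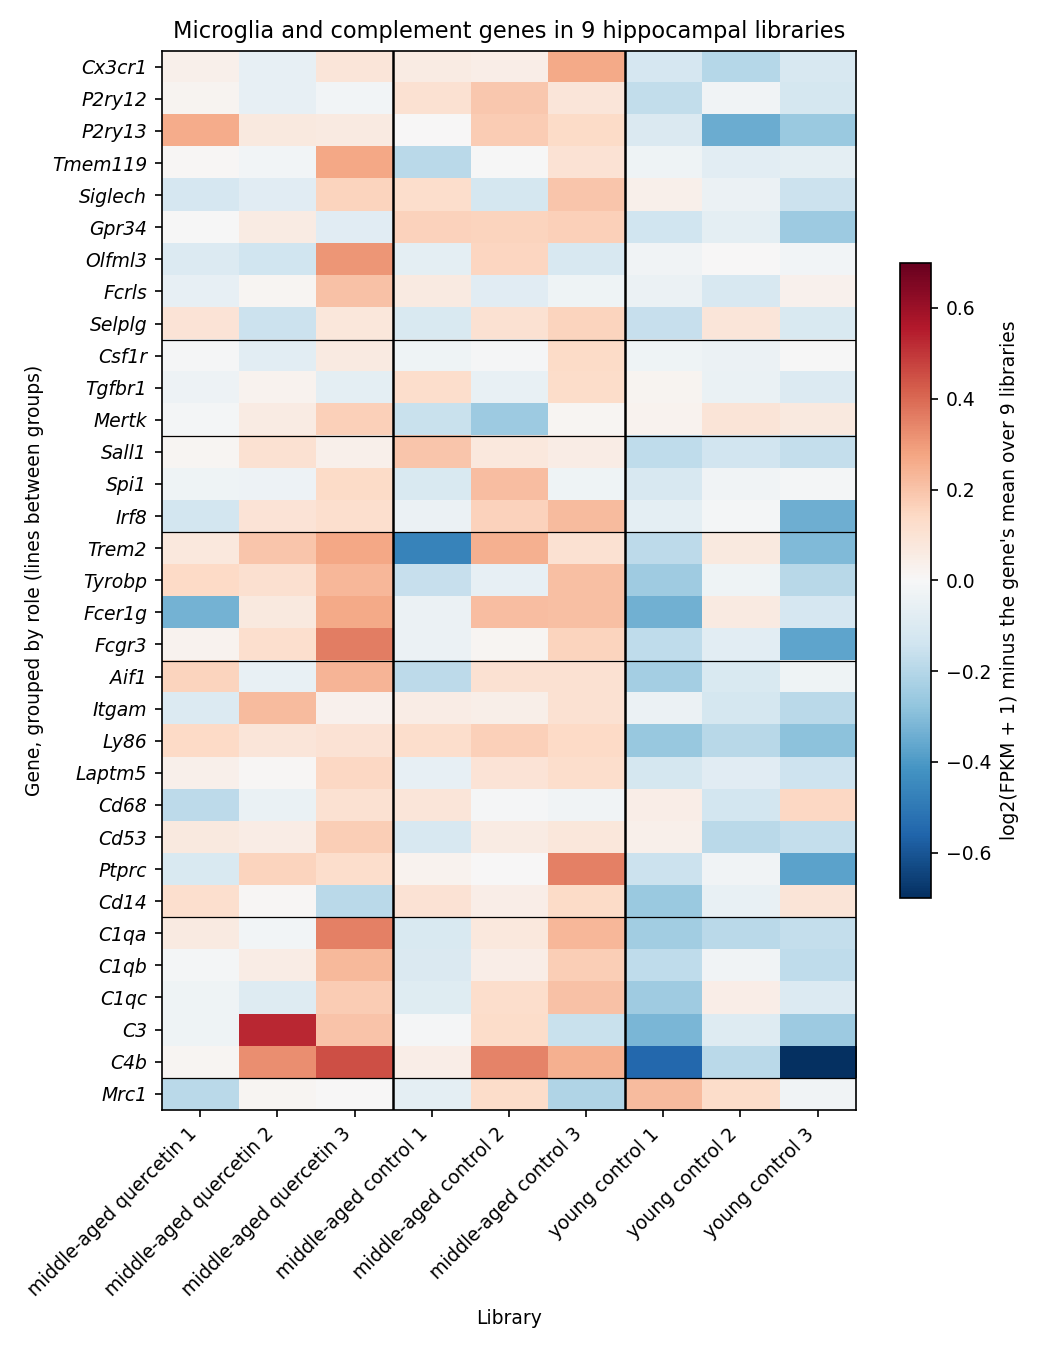
Level of each of the 33 genes in each library, as log2(FPKM + 1) minus the gene's mean over the 9 libraries (colour, log2 units), with genes in rows by role and libraries in columns. Most rows are below their mean (blue) in the 3 young columns, and middle-aged quercetin 3 and middle-aged control 3 hold the highest value for 14 and 10 genes.

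Middle-aged controls were compared with young controls to ask which genes differ with age. Only Ly86 was called among the 31 tested genes, with 0.23% of all tested genes called. Of the 31, 29 had a fold change above 0, with a median of 0.17, whereas over all tested genes 47.9% were above 0 and the median was -0.00. At an unadjusted p under 0.05, 13 of the 31 were higher and 1, Mertk, was lower, against 5.59% and 6.63% of all tested genes. For 12 genes all middle-aged controls lay above all young controls, and for 1, again Mertk, below them, where the shares over all tested genes were 8.81% and 9.41%. The 13 higher at an unadjusted p became 7 when middle-aged control 3 was left out and 8 when the pair high in choroid plexus markers was. The count rose to 17 without middle-aged control 1 and to 16 without young control 2. Mertk missed an unadjusted p of 0.05 without middle-aged control 1, middle-aged control 2 or young control 2, or without the 2 libraries high in choroid plexus markers.

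Quercetin-treated mice were compared with middle-aged controls to ask what the flavonol changed. The age comparison used the same middle-aged control libraries with the opposite sign. Opposite fold changes of a gene in the 2 comparisons are therefore not independent. None of the 31 genes was called by limma, with 0.168% of all tested genes called, and the smallest adjusted p was 0.312, for Mertk. Of the 31, 14 were above 0 and 17 below, with a median of -0.01 against 0.01 over all tested genes. An unadjusted p under 0.05 was reached by 1 gene in the higher direction (Mertk) and by 2 in the lower (P2ry12 and Gpr34), where 6.98% and 4.69% of all tested genes did so. The same 2 genes were below all middle-aged controls in every quercetin library and none was above them, where the shares of all tested genes were 7.35% and 8.97%. The share of the 31 genes was 6.45% where 2 were counted, near the background. The unadjusted counts moved to 0 higher and 1 lower without middle-aged quercetin 3, to 2 higher and 1 lower without middle-aged control 3, and to 1 of each without middle-aged quercetin 2. Shares of all tested genes at an unadjusted p are not given for these fits. For 30 of the 31 genes the 95% interval of the quercetin fold change lay within 0.5 log2 units of 0, and the exception was Trem2 (-0.14 to 0.57). Over all tested genes 12424 of 13062 intervals did so, and with age 25 of the 31 did. The bound is wider than the median age fold change of 0.17, so it does not exclude a quercetin change of that size.

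Quercetin-treated mice were also set against young controls, the same 3 libraries that the age comparison used, so the 2 comparisons are not independent. Ly86 was the 1 gene called, with 0.0766% of all tested genes called. Of the 31 genes, 30 were above 0, with a median of 0.16 against 0.00 over all tested genes. At an unadjusted p under 0.05, 13 were higher and 0 lower, where 3.41% and 2.89% of all tested genes were. All quercetin libraries lay above all young ones for 13 genes and below them for 0, against 6.45% and 5.82%. The 13 with an unadjusted p became 8 without middle-aged quercetin 3 and 9 without the 2 libraries high in choroid plexus markers. Shares of all tested genes at that p are not given for these fits. The calls over all tested genes fell from 10 to 6 and 4 in the same order.

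**Figure D3:**
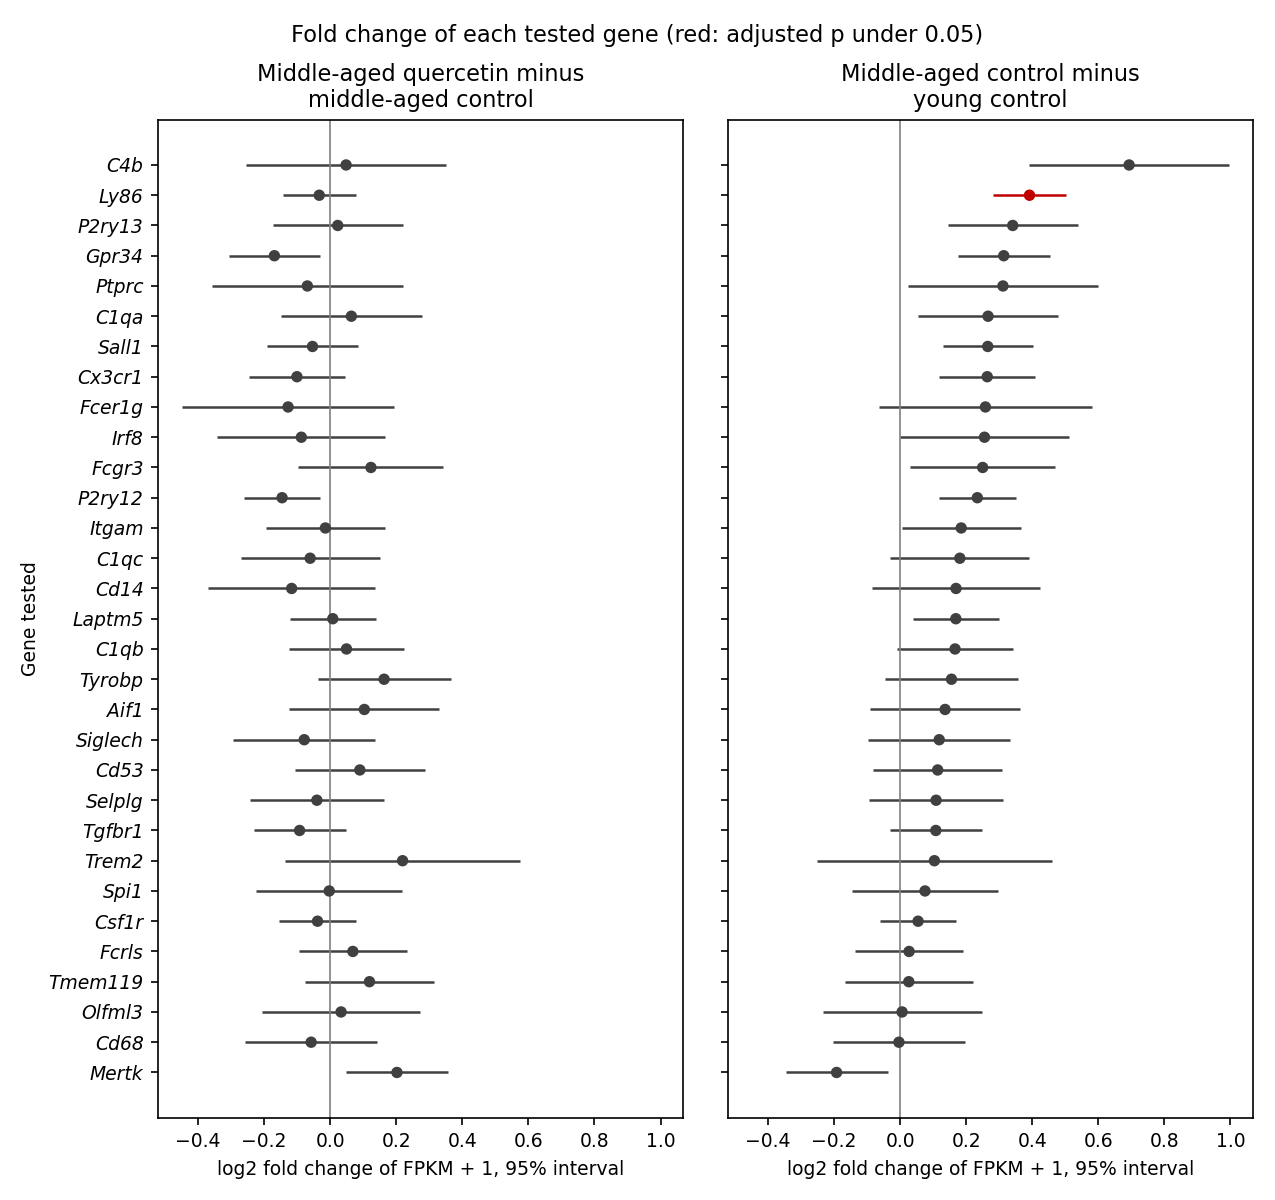
Log2 fold change of FPKM + 1 (horizontal axis) with its 95% interval for each of the 31 tested genes, for middle-aged quercetin against middle-aged control (left) and middle-aged control against young control (right), with genes in rows in the order of the right panel. Red marks an adjusted p under 0.05, which Ly86 alone has, in the right panel. On the right 29 of 31 points are above 0, and on the left 14 of 31.

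Ly86 encodes MD-1, a secreted protein that holds the Toll-like receptor relative CD180 at the cell surface. The gene lies on chr13:37345345-37419036 (GRCm38.p6). It had 7.76, 7.45 and 7.55 FPKM in middle-aged quercetin, 7.67, 7.93 and 7.76 FPKM in middle-aged control and 5.62, 5.96 and 5.52 FPKM in young control libraries. Every middle-aged library exceeded every young one, and the middle-aged groups overlapped. Ly86 rose by a log2 fold change of 0.39 ± 0.0501 (SE) with age (limma adjusted p = 0.00915) and by 0.36 ± 0.0501 in quercetin against young mice (limma adjusted p = 0.0426), and its quercetin fold change against middle-aged controls was -0.03 ± 0.0501 (adjusted p = 0.845). Without middle-aged control 1 the adjusted p for age was 0.0563, and without the 2 libraries high in choroid plexus markers it was 0.0828. The call against young controls was lost without any 1 of the 9 libraries, with adjusted p between 0.0569 (without young control 2) and 0.180 (without young control 1), and the fold change was then between 0.34 and 0.39. Without the 2 libraries high in choroid plexus markers the adjusted p was 0.378. Cd180, whose protein Ly86 binds, was below the minimum for testing, with 0.64, 0.80 and 0.81 FPKM in quercetin, 0.98, 1.03 and 1.04 FPKM in middle-aged control and 0.58, 0.64 and 0.70 FPKM in young control libraries. It was singled out after its values were seen. Of 6 listed genes of Toll-like receptors and their signalling, Cd180 among them, 3 were tested (Ly96, Cd14 and Myd88) and none was called.

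**Figure D4:**
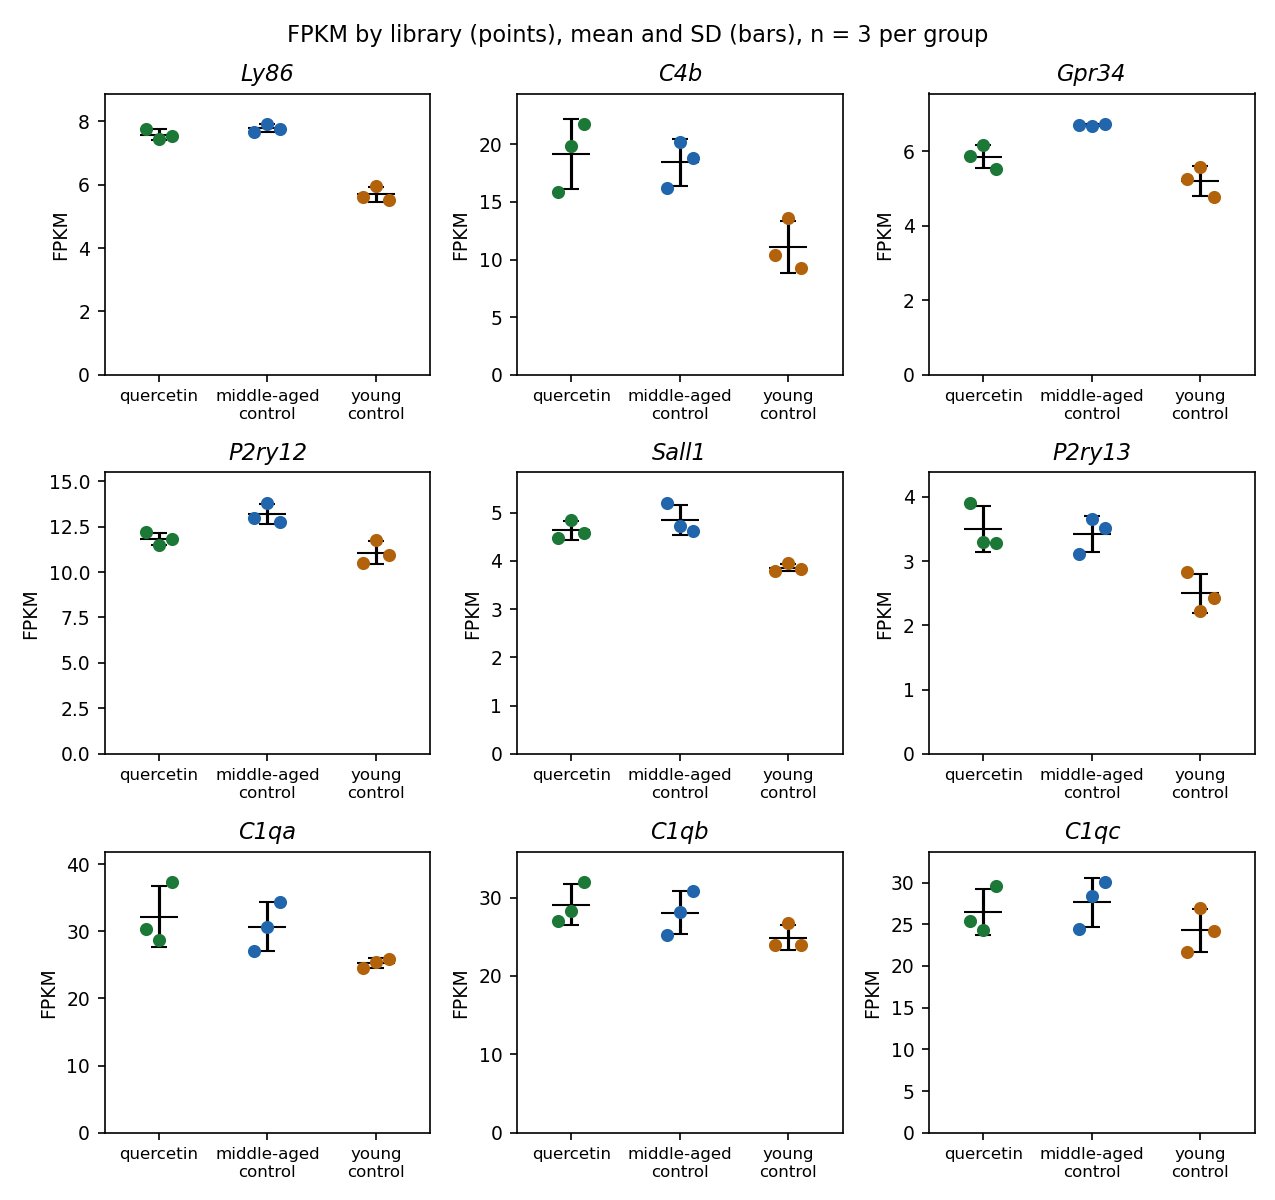
FPKM (vertical axis, from 0) of 9 genes in the 9 libraries, with libraries as points and the group mean and SD as bars (n = 3). Ly86 has 7.45 to 7.93 FPKM in the 6 middle-aged libraries and 5.52 to 5.96 FPKM in the young ones, while the C1q genes overlap between the middle-aged groups.

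The transcription factors PU.1 (encoded by Spi1) and IRF8 have known DNA motifs in myeloid genes. Promoters of 4 genes that hold the motif letters are shown as examples. Other genes of the list, such as Sall1 and Laptm5, hold them too, and the windows of P2ry13 and Cx3cr1 hold neither motif. A window of 250 bases before to 50 bases after the start site was read from RefSeq (GRCm38.p6), which had windows for 24 of the 33 genes. The letters AGGAAGT, the core of the PU.1 motif, were searched on both strands. So were GAAGTGA, letters taken from the composite motif of PU.1 with IRF8, and a match need not hold the whole motif. The motifs share the letters GAAGT but were counted separately. AGGAAGT was in 9 of 30 windows of the listed genes (30%) and in 9.35% of 32851 windows of all genes. Those 30 windows belong to 24 genes, of which 8 held the letters, and the 2 windows of Ptprc overlap and share a match. GAAGTGA was in 6 of 30 (20%), in 6 genes, and in 6.44% of all. A match is a description of letters and not of binding, and genes with and without one can be read only in the windows searched. Capitals mark the motif letters, which stand as ACTTCCT where the match is on the opposite strand. The windows are Ly86 at chr13:37345095-37345394 (plus strand), P2ry12 at chr3:59262936-59263235 (minus strand), C1qb at chr4:136886151-136886450 (minus strand) and C1qc at chr4:136892865-136893164 (minus strand).
Ly86: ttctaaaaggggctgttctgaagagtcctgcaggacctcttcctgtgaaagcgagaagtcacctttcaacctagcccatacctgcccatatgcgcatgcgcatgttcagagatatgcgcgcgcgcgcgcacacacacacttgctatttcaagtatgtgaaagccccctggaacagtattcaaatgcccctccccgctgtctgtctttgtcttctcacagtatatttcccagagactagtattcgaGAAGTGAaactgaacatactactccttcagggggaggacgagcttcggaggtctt
P2ry12: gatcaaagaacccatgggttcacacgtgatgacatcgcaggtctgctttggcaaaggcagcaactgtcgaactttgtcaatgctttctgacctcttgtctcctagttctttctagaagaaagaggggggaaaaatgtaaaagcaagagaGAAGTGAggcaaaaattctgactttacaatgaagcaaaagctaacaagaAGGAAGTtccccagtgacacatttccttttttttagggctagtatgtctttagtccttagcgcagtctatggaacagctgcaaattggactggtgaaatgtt
C1qb: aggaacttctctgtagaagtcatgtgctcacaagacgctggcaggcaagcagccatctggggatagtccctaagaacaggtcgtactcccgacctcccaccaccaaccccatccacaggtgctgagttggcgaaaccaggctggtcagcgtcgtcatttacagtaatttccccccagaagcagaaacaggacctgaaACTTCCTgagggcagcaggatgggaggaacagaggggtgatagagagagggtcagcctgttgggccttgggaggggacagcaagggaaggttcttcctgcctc
C1qc: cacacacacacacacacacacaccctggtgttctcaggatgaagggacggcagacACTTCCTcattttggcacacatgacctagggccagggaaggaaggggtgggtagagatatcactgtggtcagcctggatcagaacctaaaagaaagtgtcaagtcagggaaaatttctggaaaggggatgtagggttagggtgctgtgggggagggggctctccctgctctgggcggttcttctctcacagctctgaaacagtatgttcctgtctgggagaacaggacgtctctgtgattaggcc
In Ly86 the letters GAAGTGA begin 5 bases before the start site. P2ry12 holds GAAGTGA 101 bases and the PU.1 letters 52 bases before the start. In both windows GAAGTGA follows an A, so the PU.1 letters AGGAAGT are not part of that match. In C1qb and C1qc the PU.1 letters begin 53 and 195 bases before it.

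Of the identity genes, 9 surface or secreted products listed here as microglial markers, all 9 had an age fold change above 0 (median 0.12) and 4 reached an unadjusted p under 0.05. None was called. Gpr34, a receptor for lysophosphatidylserine, had 5.87, 6.17 and 5.53 FPKM in quercetin, 6.70, 6.67 and 6.74 FPKM in middle-aged control and 5.26, 5.58 and 4.78 FPKM in young control libraries. The middle-aged controls were above every library of the other 2 groups. Its log2 fold change was 0.31 ± 0.0629 with age (limma adjusted p = 0.0727) and -0.17 ± 0.0629 with quercetin (adjusted p = 0.327). P2ry12, a receptor for ADP that guides microglial processes to damage, had 12.18, 11.48 and 11.80 FPKM in quercetin, 12.98, 13.82 and 12.76 FPKM in middle-aged control and 10.52, 11.76 and 10.93 FPKM in young control libraries. Again the middle-aged controls were highest, and the quercetin and young libraries overlapped. Its fold changes were 0.23 ± 0.0526 with age (adjusted p = 0.104) and -0.15 ± 0.0526 with quercetin (adjusted p = 0.320). For Gpr34 and P2ry12 the opposite fold changes rest on the same middle-aged control libraries and are not independent.

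P2ry13, a related ADP receptor, had 3.91, 3.30 and 3.28 FPKM in quercetin, 3.11, 3.65 and 3.51 FPKM in middle-aged control and 2.83, 2.23 and 2.43 FPKM in young control libraries. All middle-aged libraries were above the young ones, and the log2 fold change with age was 0.34 ± 0.0894 (adjusted p = 0.157). P2ry12 and P2ry13 lie within Med12l, and Gpr34 lies within Cask, in the annotation. The use of strand in counting was not given in the sources used here, so reads of these host genes cannot be separated from theirs. Med12l was between 6.84 and 7.45 FPKM and Cask between 8.17 and 9.42 FPKM over the 9 libraries.

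Cx3cr1, the receptor for the neuronal chemokine fractalkine, had 11.32, 10.54 and 11.71 FPKM in quercetin, 11.48, 11.39 and 13.41 FPKM in middle-aged control and 10.08, 9.46 and 10.11 FPKM in young control libraries, and its age fold change was 0.26 ± 0.0660 (adjusted p = 0.132). The other 5 identity genes differed less with age. Tmem119, a surface protein that marks microglia, had a fold change of 0.03 with age and 0.12 with quercetin. Siglech, a sialic acid-binding lectin, had 0.12 and -0.08 in those comparisons, and Selplg, a ligand of selectins, had 0.11 and -0.04. Olfml3, a secreted protein, and Fcrls, an Fc receptor-like molecule, had 0.01 and 0.03 with age.

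Growth factor and engulfment receptors showed no shared direction, with age fold changes of -0.19 to 0.11 over 3 genes. Csf1r, the receptor that microglia need to survive, had 18.95 to 20.95 FPKM in quercetin, 19.56 to 22.06 FPKM in middle-aged control and 19.47 to 19.99 FPKM in young control libraries. The groups overlapped, and its fold changes were 0.05 ± 0.0527 with age and -0.04 ± 0.0527 with quercetin. Mertk, a receptor for apoptotic cells that astrocytes also carry, had 13.86, 14.65 and 15.86 FPKM in quercetin, 12.50, 11.57 and 14.18 FPKM in middle-aged control and 14.26, 14.99 and 14.75 FPKM in young control libraries. The middle-aged controls were below the young ones and overlapped the quercetin libraries in 1 value, 14.18 FPKM. Its fold changes were -0.19 ± 0.0699 with age (adjusted p = 0.297) and 0.20 ± 0.0699 with quercetin (adjusted p = 0.312). Both rest on the same middle-aged control libraries and are not independent. Tgfbr1, a receptor for transforming growth factor beta, had 0.11 with age and -0.09 with quercetin.

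Among the transcription factors, Sall1, which keeps microglia distinct from other macrophages, had 4.48, 4.85 and 4.57 FPKM in quercetin, 5.21, 4.72 and 4.62 FPKM in middle-aged control and 3.80, 3.95 and 3.84 FPKM in young control libraries. All middle-aged values were above all young ones. The log2 fold change was 0.27 ± 0.0620 with age (limma adjusted p = 0.116) and -0.05 ± 0.0620 with quercetin (adjusted p = 0.791). Spi1 and Irf8, which direct myeloid development, were low, at 1.37 to 1.97 and 1.14 to 2.16 FPKM over the 9 libraries. Their age fold changes were 0.08 ± 0.10 and 0.26 ± 0.115.

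The 4 genes of TREM2, DAP12 and Fc receptors, which signal through immunoreceptor motifs, were above 0 in both comparisons with young mice. With quercetin against middle-aged controls, 3 of the 4 were above 0 and none had an unadjusted p under 0.05. Tyrobp, which encodes the adaptor DAP12, had 12.34, 12.10 and 13.24 FPKM in quercetin, 9.84, 10.64 and 13.05 FPKM in middle-aged control and 9.20, 10.89 and 9.58 FPKM in young control libraries. The quercetin libraries were above the young ones, and the middle-aged controls overlapped both. Trem2, its lipid-sensing partner, was uneven within groups, with 6.17, 6.77 and 7.22 FPKM in quercetin, 3.91, 7.08 and 6.32 FPKM in middle-aged control and 4.99, 6.13 and 4.48 FPKM in young control libraries. Fcgr3, a low-affinity receptor for immunoglobulin G with closely related family members, had an age fold change of 0.25 ± 0.0995, and Fcer1g, the chain that Fc receptors signal through, had 0.26 ± 0.146. Neither was called.

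Of the 8 pan-myeloid and lysosomal genes, 7 were above 0 with age and 3 with quercetin, and Ly86 alone was called. Laptm5, a lysosomal membrane protein, had 13.71, 13.44 and 14.89 FPKM in quercetin, 12.79, 14.37 and 14.67 FPKM in middle-aged control and 12.21, 12.63 and 11.99 FPKM in young control libraries, so that the young libraries did not overlap the middle-aged ones. Ptprc, which encodes the leukocyte antigen CD45, and Itgam, the alpha chain of complement receptor 3, had age fold changes of 0.31 ± 0.131 and 0.18 ± 0.0819. Aif1 (IBA1), an actin-binding protein used to stain microglia, had 0.14 ± 0.103. Cd53, a tetraspanin, and Cd14, a co-receptor for lipopolysaccharide, had 0.11 and 0.17. Cd68, a lysosomal protein, was near 0 in all 3 comparisons, at -0.00 with age, -0.06 with quercetin and -0.06 for quercetin against young mice.

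The complement genes held the 3 highest FPKM levels of the list, those of the C1q chains. C1qa, C1qb and C1qc encode the A, B and C chains of 1 complex, and they sit side by side on chr4:136880126-136898844, a span of 18.7 kb. C1qa had 30.41, 28.77 and 37.39 FPKM in quercetin, 27.02, 30.70 and 34.38 FPKM in middle-aged control and 24.48, 25.41 and 25.85 FPKM in young control libraries. C1qb had 26.95, 28.28 and 32.03 FPKM in quercetin, 25.28, 28.18 and 30.82 FPKM in middle-aged control and 23.95, 26.72 and 23.97 FPKM in young control libraries. C1qc had 25.41, 24.35 and 29.57 FPKM in quercetin, 24.44, 28.34 and 30.11 FPKM in middle-aged control and 21.67, 26.90 and 24.21 FPKM in young control libraries. Only C1qa kept the middle-aged controls above the young ones, and all 3 genes were highest in the third library of the quercetin or middle-aged control group.

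The age fold changes of the C1q genes were 0.27 ± 0.0965, 0.17 ± 0.0790 and 0.18 ± 0.0952 for C1qa, C1qb and C1qc (limma adjusted p = 0.296, 0.434 and 0.479). With quercetin they were 0.06, 0.05 and -0.06 (adjusted p = 0.846, 0.856 and 0.853). Over the 9 libraries the ratio of C1qa to C1qb was 0.951 to 1.17 and that of C1qb to C1qc 0.990 to 1.16. The ratio of C1qa to C1qc varied more, with 1.18 to 1.26 in quercetin, 1.08 to 1.14 in middle-aged control and 0.945 to 1.13 in young control libraries. The quercetin libraries lay above all others in this ratio, and the control groups overlapped. It was described after its values were seen and not tested. Together they made up 27.2% to 29.6% of the summed FPKM of the 33 genes in every library.

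C4b, which encodes the C4 protein that C1 cleaves and which astrocytes and oligodendrocytes also express, had the largest fold change of the 31 genes in both comparisons with young mice. It lies on chr17:34728139-34743902. It had 15.84, 19.87 and 21.80 FPKM in quercetin, 16.24, 20.20 and 18.84 FPKM in middle-aged control and 10.38, 13.65 and 9.29 FPKM in young control libraries. Every middle-aged library exceeded every young one. The log2 fold change was 0.69 ± 0.138 with age (limma adjusted p = 0.0700), 0.05 ± 0.138 with quercetin (adjusted p = 0.928) and 0.74 ± 0.138 for quercetin against young mice (adjusted p = 0.140), so none was called. Without young control 2 its age fold change was 0.84 and the adjusted p 0.0413. C4b over the mean of the 3 C1q genes was 0.656 ± 0.0792 in quercetin, 0.641 ± 0.0512 in middle-aged control and 0.446 ± 0.0709 in young control libraries (SD, n = 3 each). The closely similar neighbour C4a was not analysed here, and the assignment of reads shared by both was not given in the sources used here. Gfap, the intermediate filament of astrocytes, had 114 to 149 FPKM in quercetin, 127 to 149 FPKM in middle-aged control and 97.5 to 103 FPKM in young control libraries, with an age fold change of 0.44 ± 0.0841 (adjusted p = 0.0624). Its part in the C4b difference was not tested.

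C3, the protein on which all complement branches converge, was below the minimum for testing. It had 0.60, 1.36 and 0.88 FPKM in quercetin, 0.63, 0.79 and 0.47 FPKM in middle-aged control and 0.31, 0.54 and 0.37 FPKM in young control libraries, and the highest value was in middle-aged quercetin 2, one of the libraries high in choroid plexus markers. Mrc1, the mannose receptor of border macrophages, was the other untested gene, with 0.28, 0.47 and 0.46 FPKM in quercetin, 0.39, 0.59 and 0.26 FPKM in middle-aged control and 0.70, 0.59 and 0.43 FPKM in young control libraries. Its groups overlapped, and its young mean was the highest of the 3.

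Of 14 other complement components, 11 had values and 4 were tested, and none was called in any comparison. With age, 1 of the 4 was above 0. Cfp, which encodes properdin, the stabiliser of the alternative branch, had 7.09, 8.20 and 7.32 FPKM in quercetin, 6.41, 7.55 and 5.79 FPKM in middle-aged control and 7.83, 8.94 and 8.18 FPKM in young control libraries, and its age fold change was -0.30 ± 0.0870 (adjusted p = 0.198). Of 17 receptors and regulators of complement, 16 had values and 11 were tested, 5 were above 0 with age and none was called. Among them Itgb2, the beta chain that pairs with Itgam, had an age fold change of 0.21 ± 0.0963 (adjusted p = 0.407), and Clu, which encodes the abundant chaperone clusterin, had -0.14 (adjusted p = 0.345).

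Ligands of the microglial receptors were expressed by all libraries, and none of the 10 was called in any comparison. Csf1, a ligand of Csf1r, had 7.82, 8.04 and 8.24 FPKM in quercetin, 8.38, 9.08 and 8.38 FPKM in middle-aged control and 7.14, 7.03 and 6.49 FPKM in young control libraries. The groups did not overlap, the middle-aged controls being highest, and the log2 fold change was 0.29 ± 0.0549 with age (limma adjusted p = 0.0624) and -0.09 ± 0.0549 with quercetin (adjusted p = 0.583). Il34, the other ligand of that receptor, had an age fold change of -0.02, and Cx3cl1, the ligand of Cx3cr1, had -0.06.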

How the data were processed

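Hippocampal RNA was sequenced from 9 libraries of 3 groups. The authors deposited FPKM values with 22173 genes, of which 18798 had values. TopHat2, Cufflinks and the build GRCm38 stand in the submitters' processing notes, and the paper names other aligners and a counting tool. The pipeline behind the deposited values was not given in the sources used here. FPKM carries no counts, so no count model was fitted. Values of log2(FPKM + 1) were fitted over 9 libraries in limma 3.58.1 under R 4.3.3, using empirical Bayes moderation and a trend of variance on level, with 3 contrasts and Benjamini-Hochberg adjustment over the 13062 genes that reached 1 FPKM in 3 or more libraries. The procedure was run on simulated data with independent noise and planted fold changes larger than most of those described here. Recovery of smaller changes was not examined. Every gene of the list is named by role. Values per library are given for called genes, for those with the smallest p up to 6, for the complement genes and Mrc1, and for some others. Members of the other lists are named when called, and otherwise up to 3 by smallest p or when they bear on a gene described. The genes, lists and tests were chosen with earlier results of these data known. Coordinates and promoters are from RefSeq tables of GRCm38.p6. Alternatives were another pseudocount (0.1 FPKM), a minimum mean of 5 FPKM, no filter, scalings, no trend, a replicate block, fits of 6 libraries and each library left out. Figures were drawn with matplotlib 3.10.9 (Python 3.11.15, pandas 2.3.3).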

Additional observations from a re-analysis of the deposited data

How the results depend on the processing

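Of the 31 tested genes, 1 (Ly86) was called with age, and this count was 2 (Ly86 and C4b) with a mean of at least 5 FPKM, 0 without the pair of libraries high in choroid plexus markers (young control 3, middle-aged quercetin 2), and between 0 (middle-aged control 1 left out) and 2 (young control 2 left out) over the libraries left out 1 at a time. For quercetin against young mice the count of 1 was 0 with no filter on low values, with the replicate block, with 6 libraries of the 2 groups and without that pair, and it was 0 without any 1 library. The Ly86 adjusted p in that comparison lay between 0.0295 and 0.378 over 18 alternatives, and for age between 0.00793 and 0.0828. No gene was called for quercetin against middle-aged controls in any of the 18 alternatives. The cause of these changes was not tested. The mean over the 33 genes differed by 0.170 with age and 0.178 for quercetin against young mice, and a median over the genes gave 0.235 and 0.255. Uncalled fold changes changed sign in 13, 28 and 15 of 548 recomputed values per comparison (age, quercetin, quercetin against young). These changes came from 6, 15 and 8 of the 31 tested genes in that order. Several settings, such as the replicate block and no trend, cannot alter a fold change, so the 548 include values that could not move. Over all genes, the 30 calls with age ranged between 9 and 66, the 22 with quercetin between 0 (without middle-aged control 1) and 32 (a mean of at least 5 FPKM), and the 10 for quercetin against young mice between 4 and 10.

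Replicate numbers were shared between groups. Of 9 same-numbered pairs, 1 had correlated deviations over 0.1 (range -0.198 to 0.118), and 2 of 9 libraries correlated best with their own number, so the numbers were not read as pairing. With the replicate block 1 gene was called with age, 0 with quercetin and 0 for quercetin against young mice. Groups of 3 libraries and the unknown depth limit the precision, and genes under about 1 FPKM were not tested.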

Other observations

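Genes that mark the disease-associated state of microglia, a program known from mouse models of neurodegeneration, were called in no comparison. Of 16 genes, 10 were tested, 6 were above 0 with age and 6 with quercetin. Among those below the minimum for testing, Cst7 had 0.12 to 0.35 FPKM and Itgax 0.00 to 0.29 FPKM over the 9 libraries. Clec7a, a receptor for beta-glucans, had 0.13, 0.13 and 0.24 FPKM in quercetin, 0.26, 0.27 and 0.29 FPKM in middle-aged control and 0.05, 0.10 and 0.08 FPKM in young control libraries. These groups did not overlap, at levels too low for the test, and the gene was singled out after its values were seen. Gpnmb, a lysosomal glycoprotein, had the smallest p of the list, with an age fold change of 0.37 on the log2 scale (limma adjusted p = 0.266). Lpl, a lipase, had a quercetin fold change of -0.22 (adjusted p = 0.341).

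Most of the 14 inflammatory mediators were close to the lower end of the table. The 2 that were tested, Nfkbia and Ptgs2, were not, and neither was called. Ptgs2, a prostaglandin synthase, had 5.72 to 7.89 FPKM over the 9 libraries. The cytokine genes Il1b, Tnf and Il6 reached at most 0.21, 0.11 and 0.16 FPKM in any library. Il1b, also below the minimum, went the other way from Clec7a between the control groups. The young controls had 0.17, 0.21 and 0.21 FPKM, above all middle-aged libraries. Those had 0.04, 0.13 and 0.04 FPKM with quercetin and 0.04, 0.04 and 0.08 FPKM in controls. Il1b too was singled out after its values were seen. Nfkbia, an inhibitor of NF-kB, had 9.02 to 13.6 FPKM over the 9 libraries and an age fold change of -0.30 (limma adjusted p = 0.184).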
